A study of Owenia fusiformis with 26 samples.

Results

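The broad open regions described here were chosen by their length in 1 replicate and their overlap with the other. Of the 118443 open chromatin peaks called in replicate 1 of *Owenia fusiformis* coeloblastulae at 5 h post fertilisation (hpf), those of at least 2000 bases were kept if they overlapped a replicate 2 peak by at least 1 base. This gave 931 regions, which was 0.786% of the replicate 1 peaks and 1.67% of the 55896 replicate 1 peaks shared with replicate 2. They covered 2.25 Mb, or 4.14% of the bases under replicate 1 peaks.

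*O. fusiformis* is a marine annelid with equal spiral cleavage, and the study asked how its embryos fix their body axes. Besides RNA-seq of staged embryos, it used 2 replicates of the assay for transposase-accessible chromatin with sequencing (ATAC-seq) from 1 stage, the coeloblastula, a hollow ball of cells just before gastrulation. Each ATAC-seq library came from many pooled whole embryos reared in artificial sea water, with no drug or genetic change named for them, so the peaks mix all cell types of the embryo. The labels give no separate parents, cultures or days for the 2 libraries, and the spread between them may be technical.

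In ATAC-seq a transposase cuts and tags DNA that is not wrapped in nucleosomes, so that reads pile up over promoters, enhancers and other sites held open by bound proteins. The peak caller joins neighbouring bases that pass its threshold into 1 peak, and a long peak may therefore be 1 wide stretch or several sites side by side. In mammals, long accessible stretches are known from clusters of enhancers around genes that define cell identity.

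Every value in the peak lists comes from the same 2 libraries that chose the regions. The values below are therefore descriptions with no test, set beside the same values in shared peaks of shorter length. Intervals are 95% intervals, from Wilson's method for shares and from the order statistics for medians, and these cover counting error over regions only. An exact Poisson interval given for a summit pileup covers counting error in that pileup only.

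Replicate 2 held fewer and shorter peaks than replicate 1. It had 73474 peaks, of which 109 (0.148%) reached 2000 bases, against 118443 peaks with 949 (0.801%) of that length in replicate 1. The lists give no read totals. However, fold enrichment and p of each peak together return a whole number of fragments or tags at the summit, called the summit pileup here, and the number expected there, called the local background. The commonest local background, taken as the genome-wide one, was 24.05 in replicate 1 and 13.63 in replicate 2, a ratio of 1.76. The part of this difference in the length and number of replicate 2 peaks was not tested.

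Length went with overlap between replicates. Of the 949 replicate 1 peaks of at least 2000 bases, 931 (98.1%, interval 97.0 to 98.8) overlapped a replicate 2 peak, and 18 did not. The share was 90.3% for peaks of 1000 to under 2000 bases, 70.9% for peaks of 500 to under 1000 bases and 33.5% for peaks of under 500 bases, against 47.2% of all replicate 1 peaks. Longer peaks offer more bases to meet a peak by, and the overlap is part of the rule, so nothing is read from this order.

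Most of the regions were only a little longer than the minimum. Their median length was 2277 bases (quartiles 2119 and 2550.5), 659 (70.8%) were under 2500 bases, 80 were 3000 bases or more and 9 were 4000 bases or more. At the threshold, Scaffold10:367631-369630 and Scaffold23:7786323-7788322 had 2000 bases and Scaffold01:24405499-24407499 had 2001 bases, with replicate 1 folds of 4.80, 3.67 and 8.01. Just short of it, Scaffold11:16773286-16775284 and Scaffold24:159552-161550 missed it by 1 base and Scaffold15:10617537-10619534 by 2 bases, with folds of 2.54, 4.11 and 3.12. The folds on either side of the threshold overlapped.

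Fold enrichment is the summit pileup over the local background, each with 1 added. In replicate 1 the broad regions had a median fold of 3.22 (interval 3.15 to 3.30), with quartiles of 2.80 and 3.85 and a range of 1.77 to 10.2. Shared peaks of 1000 to under 2000 bases had a median of 3.23 (interval 3.20 to 3.24), those of 500 to under 1000 bases 2.92 and those of under 500 bases 2.36. The medians of the broad regions and of the next shorter class lay within each other's intervals. A fold of 4 or more was found in 21.3% of the broad regions and in 24.3%, 18.6% and 7.69% of the shorter classes, in falling order of length. Within the 931 regions, length and replicate 1 fold had a Spearman correlation of -0.10.

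The pileup differed between all 4 classes, also where the fold was level. The median summit pileup was 120 in the broad regions, 102 in peaks of 1000 to under 2000 bases, 85 in peaks of 500 to under 1000 bases and 65 in peaks of under 500 bases. Divided by the genome-wide background, these medians were 4.99 (interval 4.86 to 5.16), 4.24, 3.53 and 2.70. The local background was also higher around the broad regions, with a median of 35.6 (interval 34.5 to 36.9) against 29.5, 26.3 and 24.2 in the shorter classes. Compared with peaks of 1000 to under 2000 bases, the broad regions thus had a higher pileup over the genome-wide background at a level median fold, and compared with both shorter classes they were higher in each. The summit is where the pileup along a peak is highest, so a longer peak has more chances at a high value. The classes are therefore not on an equal footing in pileup. How far a long peak adds to the local background computed around it was not tested.

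**Figure D1:**
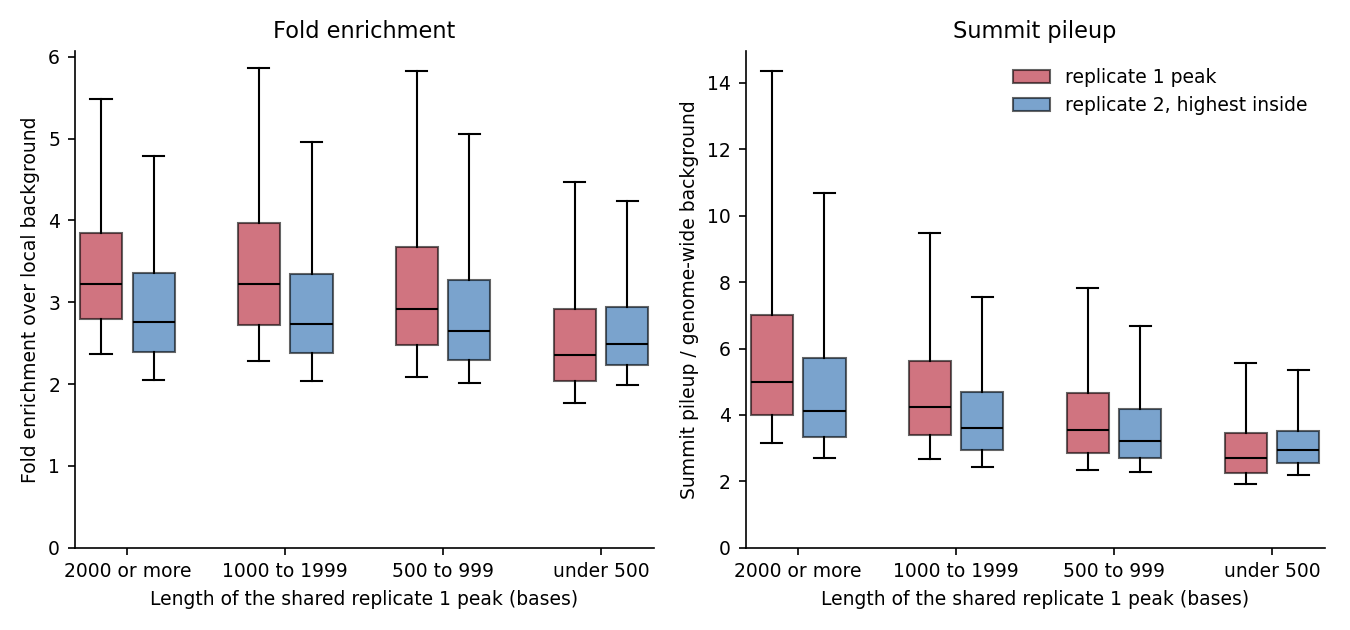
Fold enrichment over the local background (left) and summit pileup divided by the genome-wide background of its replicate (right), for shared replicate 1 peaks in 4 length classes. Red boxes are the replicate 1 peaks and blue boxes the highest replicate 2 value inside them, with the median, the quartiles and whiskers at the 5th and 95th percentiles; the median replicate 1 folds of the broad regions (3.22) and of the next class (3.23) are level, whereas their pileups are 4.99 and 4.24 times the genome-wide background.

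The same order appeared in replicate 2. The highest replicate 2 fold inside a broad region had a median of 2.76 (interval 2.70 to 2.80), against 2.74, 2.65 and 2.49 in the shorter classes. The highest replicate 2 pileup was 4.11 times the genome-wide background of that replicate, against 3.60, 3.23 and 2.93. Because a region that holds several peaks gives several chances at a high value, these maxima are not on an equal footing between classes. Over the 931 regions, the replicate 1 fold and the highest replicate 2 fold had a Spearman correlation of 0.80, and the local background in replicate 1 and the highest in replicate 2 one of 0.91. Both points of a pair come from the same DNA, and both measures rest on the same genome, so sequence composition and mappability are shared. The replicate 2 fold exceeded that of replicate 1 in 145 regions (15.6%), a share not computed for shorter peaks. Over all shared peaks the median fold was 2.70 in replicate 1 and the median highest fold 2.60 in replicate 2. In peaks of under 500 bases these were 2.36 and 2.49. The regions were chosen by their length in replicate 1, so nothing is read from the count of 145.

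Replicate 2 seldom returned a broad region as 1 equally long peak. The 931 regions held 1916 replicate 2 peaks, none of which lay in more than 1 region and of which 1679 (87.6%) lay wholly inside. One replicate 2 peak was held by 296 regions, 2 by 388, 3 by 164, 4 by 66, 5 by 14 and 6 by 3. At least 2 were held by 68.2% of the broad regions (interval 65.1 to 71.1), against 33.4%, 11.6% and 1.35% of the shorter classes. Shorter peaks have less room for several replicate 2 peaks, so these shares are not on an equal footing. Only 84 regions (9.02%) held a replicate 2 peak that was itself at least 2000 bases long, and 420 (45.1%) held one of at least 1000 bases. Seen from replicate 2, 85 of its 109 broad peaks (78.0%, interval 69.3 to 84.7) lay in the 931 regions.

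The replicate 2 peaks inside the regions were longer than elsewhere but no stronger over their surroundings. Their median length was 430 bases, against 252 bases for the other 71558 replicate 2 peaks. Their median fold was 2.36 against 2.44, and their median pileup 48 against 40. A longer replicate 2 peak has more bases with which to meet a region. Of all 73474 replicate 2 peaks, 61603 overlapped a replicate 1 peak, so the other peaks include some with no match. The groups are therefore not on an equal footing. Between neighbouring replicate 2 peaks of 1 region lay 985 gaps with a median of 244 bases (quartiles 134 and 485). Of these gaps, 749 (76.0%) were under 500 bases and 62 (6.29%) were 1000 bases or more. The length of a region limits these gaps.

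Together the replicate 2 peaks covered 55.2% of the bases of the regions. The median region was covered over 55.6% of its length (interval 53.8 to 57.3), against 58.0%, 59.2% and 76.1% in the shorter classes. Coverage exceeded 80% in 178 regions (19.1%), reached at least 50% in 542 (58.2%) and stayed under 20% in 82 (8.81%). In the shorter classes it exceeded 80% in 23.1%, 27.4% and 45.4% and reached at least 50% in 59.1%, 59.9% and 76.3%. It stayed under 20% in 10.6%, 7.56% and 2.99%. Over all shared peaks these shares were 35.3%, 67.7% and 5.84%.

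Regions with more replicate 2 peaks were longer and had lower folds. From 1 to 2, 3 and at least 4 replicate 2 peaks held, the median length was 2209.5, 2262, 2381.5 and 2705 bases and the median replicate 1 fold was 3.45, 3.23, 3.06 and 2.98. The longest replicate 2 peak had a median length of 1518.5, 918, 708.5 and 588 bases in the same order. Coverage did not follow: its median was 64.1% with 1 replicate 2 peak and 53.8%, 53.5% and 54.1% with 2, 3 and at least 4.

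How much of a region came back in replicate 2 went with its fold in replicate 1. With the regions ranked by replicate 1 fold and cut into 4 groups of 232 or 233, the median coverage from the lowest to the highest group was 34.9%, 50.9%, 64.1% and 76.4%. The longest replicate 2 peak had a median length of 561, 795, 1120 and 1375 bases in the same order, although the median length of the regions themselves was between 2252 and 2317 bases in all 4 groups. Over the 931 regions, replicate 1 fold and coverage had a Spearman correlation of 0.53, whereas length and coverage had one of -0.07.

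**Figure D2:**
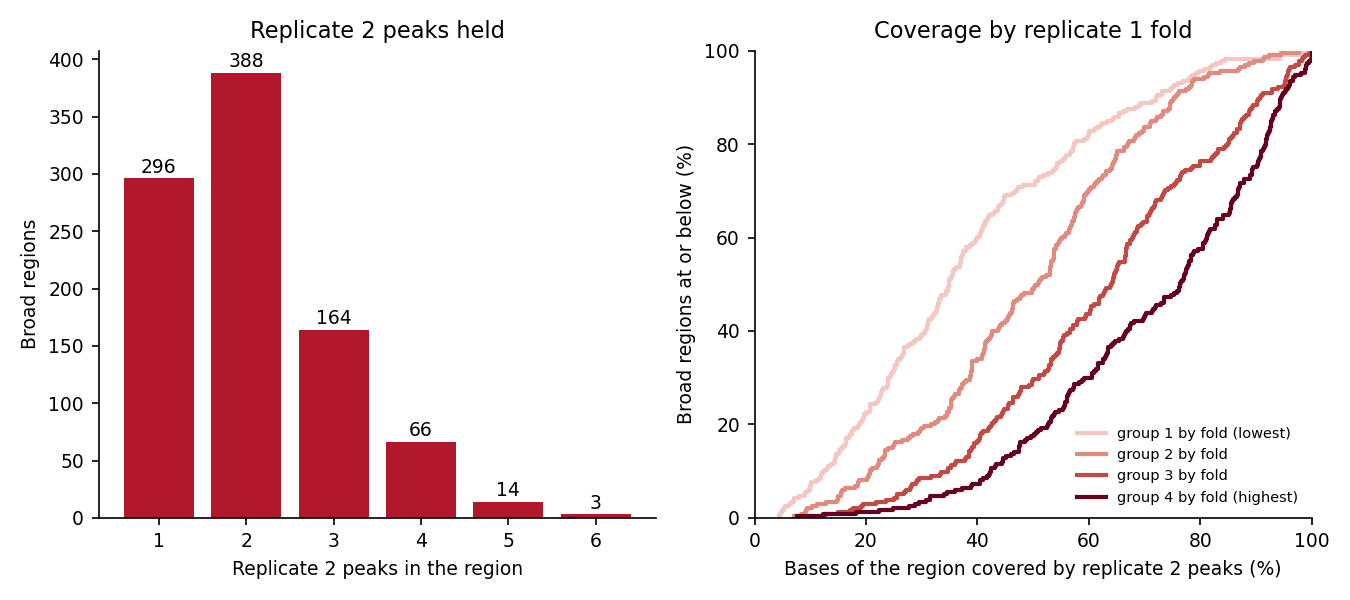
Number of broad regions by the number of replicate 2 peaks each holds (left), and the cumulative share of regions by the percentage of their bases under replicate 2 peaks, for 4 groups of regions from the lowest to the highest replicate 1 fold (right). Regions with 2 replicate 2 peaks were the commonest (388), and the curves run in the order of fold, with median coverages of 34.9%, 50.9%, 64.1% and 76.4%.

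Summits, the bases of highest pileup, were less often near each other between replicates in long peaks. A replicate 2 summit lay within 150 bases of the replicate 1 summit in 519 of the 931 regions (55.7%, interval 52.5 to 58.9), against 59.1%, 71.9% and 84.5% in the shorter classes and 75.7% of all shared peaks. Short peaks leave less room for summits to be apart, so the shares are not on an equal footing. The median distance was 127 bases in the broad regions and was 180, 143, 146.5 and 54 bases from the lowest to the highest of the 4 groups by replicate 1 fold. Nevertheless, the replicate 1 summit lay under a replicate 2 peak in 768 regions (82.5%). In the 635 regions with at least 2 replicate 2 peaks, it lay under the one of highest fold in 393 (61.9%).

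The summit was also less often central along a broad region than along shorter shared peaks. It was in the first of 3 equal parts of 275 regions, the middle part of 374 (40.2%, interval 37.1 to 43.4) and the last part of 282. In the shorter classes the middle part held 50.0%, 53.5% and 51.4% of the summits.

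Some of the regions had a high local background. The local background in replicate 1 was more than 2 times the genome-wide one in 232 of the 931 regions (24.9%, interval 22.2 to 27.8), against 7.49%, 3.48% and 2.2% of the shorter classes and 3.84% of all shared peaks. It was above the genome-wide one at all in 94.4% of the broad regions, against 80.3%, 64.5% and 50.6%. Length and local background had a Spearman correlation of 0.27 over the 931 regions. As above, how far a long peak adds to the local background computed around it was not tested. The classes are therefore not on an equal footing here either. More than 10 times the genome-wide background was found in 7 regions on 5 scaffolds.

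The extreme was a pair at the start of Scaffold16. Scaffold16:1801-10963, the longest region with 9163 bases, had a summit pileup of 37877 in replicate 1 (exact Poisson interval 37497 to 38260), and its local background of 11089 was 461 times the genome-wide one. Its fold was only 3.42. In replicate 2 it held 2 peaks, of 4174 and 3419 bases, with folds of 1.41 and 3.26 and pileups of 6010 and 15992. The replicate 1 summit coincided to the base with a replicate 2 summit. The next region, Scaffold16:11627-17526, began 663 bases further on and was the second longest with 5900 bases. Its pileup was 23269 over a local background of 6613 in replicate 1, a fold of 3.52, and the longer of its replicate 2 peaks, of 4775 bases, had a pileup of 8793 over 3029, a fold of 2.90. Both regions were thus extreme in pileup in both libraries and ordinary in fold. They held 28.8% of the summed summit pileup of all 931 regions.

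Another peak, Scaffold16:325-1662, lay before this pair, and its 1338 bases kept it out of the regions. It had a pileup of 23229 in replicate 1 and of 8078 in replicate 2. The next replicate 1 peaks along the scaffold, from base 26561 on, had pileups of between 48 and 75. No replicate 1 peak was called between the second region of the pair and base 26561, so the lists do not show where the high values ended.

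Of the other 5 regions with over 10 times the genome-wide background, 4 had the next highest backgrounds and were singled out after their values were seen. Scaffold06:7981342-7985031 had a pileup of 3727 over a local background of 1081 in replicate 1, 45.0 times the genome-wide one, with a fold of 3.45. Replicate 2 returned it as 1 peak of 4397 bases with a pileup of 1114 and a fold of 2.43. Scaffold01:17960144-17963357 and Scaffold01:17967568-17970133, which lay in the same 9990 bases, had backgrounds of 24.7 and 12.5 times the genome-wide one and folds of 2.92 and 3.51. Scaffold08:14656291-14658487 had a background of 17.0 times the genome-wide one and a fold of 2.35 in replicate 1, and 3 replicate 2 peaks with folds of 1.37 to 1.63. In none of these 4 regions did the fold in either replicate reach 4, whereas the remaining one, Scaffold04:21144067-21147211, had a fold of 5.30 and is described with its neighbours below. Without the 7 regions, the median fold of the rest was 3.22 and the median pileup 120, as with them.

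**Figure D3:**
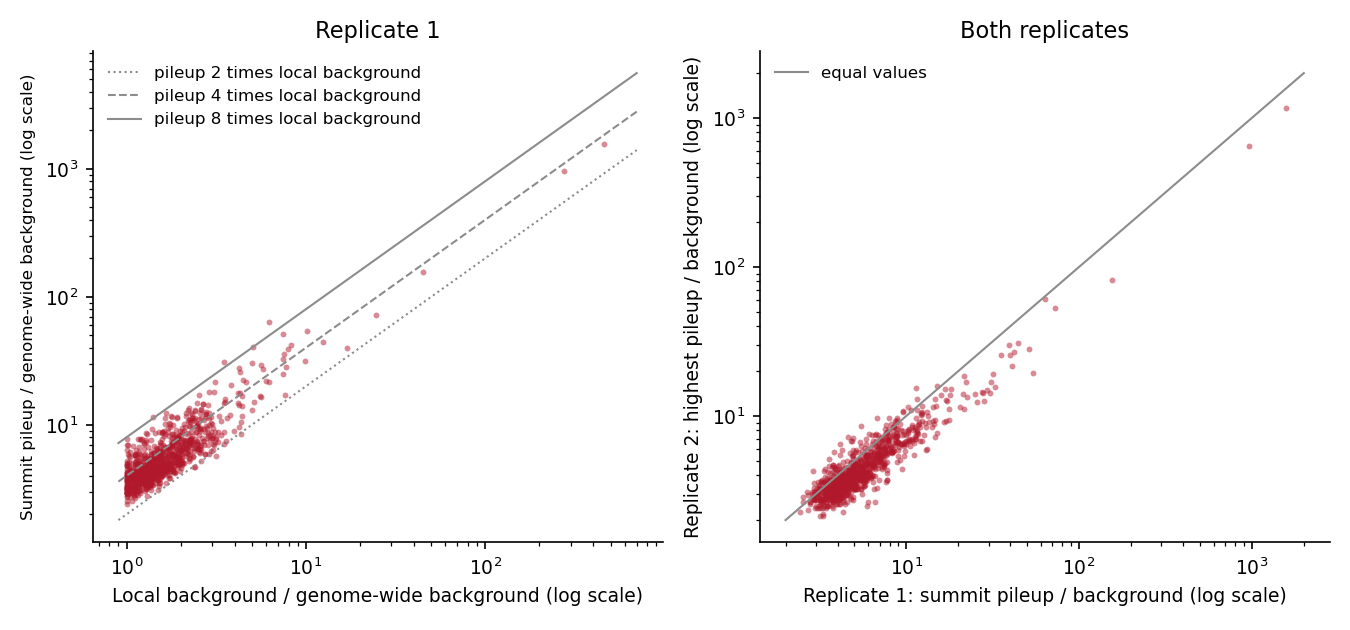
Each point is 1 of the 931 broad regions, on log axes. Left, local background against summit pileup in replicate 1, both divided by the genome-wide background of 24.05, with lines at 2, 4 and 8 times the local background; right, the summit pileup in replicate 1 against the highest pileup in replicate 2, each divided by its own genome-wide background. The 2 points farthest up are the pair on Scaffold16, with local backgrounds of 461 and 275 times the genome-wide one.

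The remaining 8 of the 10 longest regions had pileups of 131 to 658 and folds of 2.36 to 4.75 in replicate 1. Scaffold13:3857342-3862453, of 5112 bases, had a fold of 3.85 in replicate 1 and held 5 replicate 2 peaks of 122 to 1300 bases, with folds of 1.81 to 3.25. Its replicate 1 summit lay 2 bases from a replicate 2 summit. Scaffold13:17697759-17702395, of 4637 bases on the same scaffold, had folds of 3.15 in replicate 1 and 2.78 in replicate 2 and was covered over 94.5% of its length. Scaffold04:23650962-23655574, of 4613 bases, had a lower fold of 2.36 and came back as 6 replicate 2 peaks with folds of 1.80 to 2.23.

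Long regions of similar length thus differed in how whole they were in replicate 2. Scaffold02:21611010-21615372 (4363 bases, folds of 3.59 and 2.93 in replicates 1 and 2) and Scaffold11:9398483-9402755 (4273 bases, folds of 2.76 and 3.18) each held 1 long replicate 2 peak, of 3246 and 3149 bases, and 1 short one. Scaffold27:112575-116789, of 4215 bases with a fold of 2.73, held 4 short ones that covered 31.9% of it. Scaffold03:1215023-1219022, of 4000 bases with a fold of 2.81, was met by a single replicate 2 peak over 43.7% of its length. Scaffold16:4403729-4407721, of 3993 bases, was the strongest of the 8, with a pileup of 658 and a fold of 4.75 in replicate 1 and a single replicate 2 peak of 3763 bases, a pileup of 197 and a fold of 3.72.

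The highest fold belonged to Scaffold29:612918-614998, a region of 2081 bases. Its pileup was 1531 over a local background of 149 in replicate 1, a fold of 10.2, and 826 over 84.1 in replicate 2, a fold of 9.71. A single replicate 2 peak of 2104 bases covered 98.7% of it, and the summits lay 5 bases apart. Next to the Scaffold16 pair, it also had the largest -log10 q in replicate 2 (495).

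The other 4 regions of highest fold were also covered over most of their length in replicate 2, each with a lower fold there. Scaffold21:4553400-4555650 had folds of 8.76 in replicate 1 and 6.26 in replicate 2. Scaffold01:24405499-24407499 had folds of 8.01 and 7.48, and Scaffold12:11014713-11017187 folds of 8.00 and 6.04. Scaffold36:8439-10442 had folds of 7.37 and 7.08 at a local background equal to the genome-wide one within 1% in replicate 1 (24.2) and in replicate 2 (13.7). In the order given, the replicate 1 summits of these 4 regions lay 8, 2, 12 and 221 bases from a replicate 2 summit. Coverage of the 5 regions by replicate 2 peaks was between 78.9% and 99.6%, and each was under 2500 bases long.

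At the other end, the 3 regions of lowest fold were hardly returned. Scaffold22:4951042-4953090 had a fold of 1.77 and a pileup of 136 in replicate 1, and 1 replicate 2 peak of 197 bases with a fold of 1.62. Scaffold21:8471869-8474533 had a fold of 1.93, and 1 replicate 2 peak of 121 bases covered 4.54% of it. Scaffold10:2890455-2892554 had a fold of 1.94 and 2 replicate 2 peaks over 15.9% of its length. All 3 had local backgrounds of 2.38 to 3.17 times the genome-wide one, and pileups of 112 to 136, against a median pileup of 120, so that their low folds did not go with low pileups.

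The 3 regions with 6 replicate 2 peaks and the 2 longest of the 14 with 5 differed in fold and background. Besides Scaffold04:23650962-23655574 and Scaffold13:3857342-3862453 above, Scaffold01:5464866-5468408 (3543 bases, replicate 1 fold 2.37) held 6 replicate 2 peaks of 144 to 473 bases. Scaffold07:9322995-9325728 (2734 bases, fold 3.06) held 6 of 110 to 588 bases, each with a pileup of between 31 and 38 and a fold of 2.05 to 2.37. Scaffold24:165001-168964 (3964 bases, fold 3.18, local background 4.38 times the genome-wide one) held 5, of which 1 had a fold of 2.61 and the other 4 had folds of 1.58 to 1.76. For comparison, the lowest pileup of any replicate 2 peak was 27.

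The regions were spread over nearly the whole assembly. Of 40 scaffolds, 38 held at least 1, and Scaffold37 and Scaffold40, which held 73 and 39 shared peaks, held none. Taking the end of the last peak as the end of each scaffold, the peaks spanned 499 Mb, which gave 1.86 regions per Mb or 1 per 536 kb. Scaffold02 held the most with 82 (8.81%), followed by Scaffold01 with 74, Scaffold04 with 61 and Scaffold03 with 57. The 10 largest scaffolds held 510 regions (54.8%) on 54.5% of the span, with 55.6% of the shared peaks.

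Single scaffolds lay above and below this even spread. Whether any of them differed from it beyond counting error was not tested. Scaffold12 held 19 regions in 18.2 Mb (1.04 per Mb, or 8.99 per 1000 shared peaks), although its 116 shared peaks per Mb were as dense as those of Scaffold06 with 117. Also low were Scaffold29, Scaffold23 and Scaffold19, with 1.07, 1.22 and 1.23 per Mb from 5, 11 and 13 regions. Scaffold22 held 27 regions in 9.09 Mb (2.97 per Mb), Scaffold21 held 29 in 10.3 Mb (2.83 per Mb) and Scaffold14 held 39 (2.44 per Mb). Per 1000 shared peaks, Scaffold21 had 29.0 broad regions, Scaffold22 had 23.3 and Scaffold14 had 22.2. The small Scaffold36, Scaffold38, Scaffold34 and Scaffold39 had 27.8, 24.1, 23.5 and 23.0, from only 2, 2, 4 and 2 regions. Scaffold38 and Scaffold34 also had more per Mb than Scaffold22, with 3.16 and 3.00. Scaffold39 had the highest density of all, 4.12 per Mb, from 2 regions in 0.486 Mb.

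**Figure D4:**
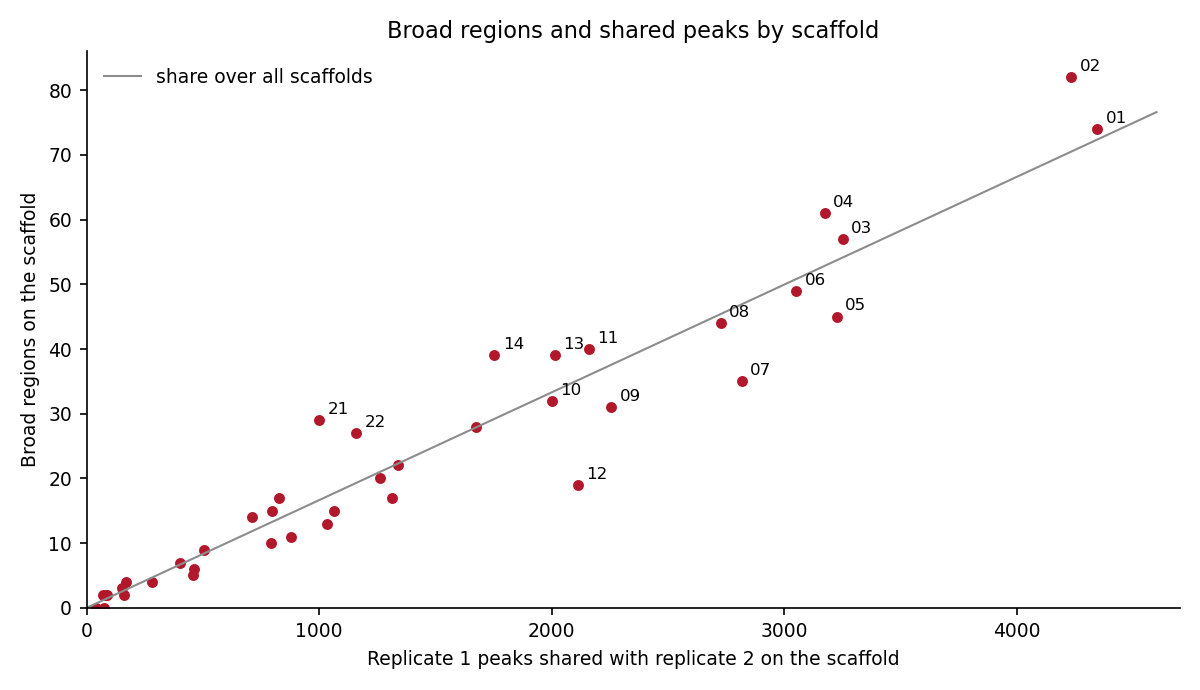
Number of broad regions on each scaffold against its number of replicate 1 peaks shared with replicate 2, with scaffold numbers beside the largest and the most distant points. The line is the share of broad regions among shared peaks over all scaffolds (1.67%); Scaffold12 lies below it with 19 regions among 2113 shared peaks, and Scaffold22 and Scaffold14 above it with 27 among 1158 and 39 among 1753.

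Between neighbouring regions of 1 scaffold the 893 gaps had a median of 324 kb (quartiles 125 and 710 kb). The gaps ran from 663 bases to 5.47 Mb, and 126 were over 1 Mb. Fewer regions on the same scaffolds leave longer gaps. The 109 broad peaks of replicate 2 alone had a median gap of 2646 kb, with 6.42% within 20 kb of another. With a -log10 q of at least 10 in both replicates, 402 regions were left at a median gap of 696 kb. Whether the spacing differed beyond what these counts give was not tested. The largest gap of the 931 regions lay between Scaffold12:5545989-5547998 and Scaffold12:11014713-11017187 and held 600 shared peaks of shorter length, so it was poor in broad regions and not in open chromatin. The second largest, of 3.77 Mb on Scaffold07, held 418.

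Close neighbours were a minority. Gaps under 20 kb numbered 63, of which 13 were under 5 kb, and 117 regions (12.6%, interval 10.6 to 14.9) had another within 20 kb. These formed 54 chains, of which 48 were pairs, 4 had 3 regions, 1 had 4 and 1 had 5. After the pair on Scaffold16, the closest were on Scaffold08. Scaffold08:162578-164625 and Scaffold08:166457-169561 lay 1831 bases apart, with replicate 1 folds of 2.26 and 3.65 on backgrounds of 183 and 145. Scaffold08:307562-309614 and Scaffold08:313210-315638 lay 3595 bases apart, with folds of 2.12 and 4.07. Both pairs therefore joined a weak and a stronger region.

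**Figure D5:**
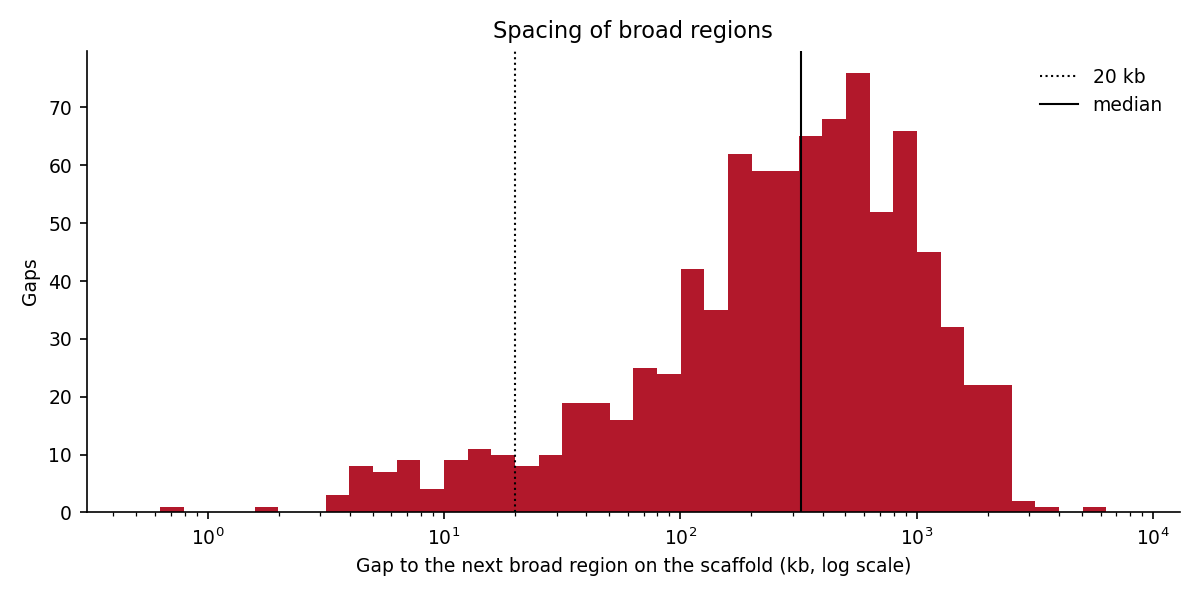
Histogram of the 893 gaps between neighbouring broad regions on the same scaffold, with gap length in kb on a log axis and lines at 20 kb and at the median of 324 kb. Most gaps lie between 100 kb and 1 Mb, with a tail to the left that holds 63 gaps under 20 kb.

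The longest chain put 5 regions into 74235 bases of Scaffold04 (Scaffold04:21144067-21218301). In order along the scaffold, their replicate 1 folds were 5.30, 2.93, 5.27, 5.94 and 2.90, and the highest replicate 2 folds inside them were 4.09, 2.25, 3.92, 4.66 and 2.15. The same 3 regions were thus high in both replicates and the same 2 low. Local backgrounds in replicate 1 were 10.2, 5.63, 3.84, 4.30 and 5.17 times the genome-wide one, all above the median of the 931 regions. The chain began a denser stretch: 10 regions lay between bases 21144067 and 21584648 of Scaffold04, the most in any 500 kb that began at a region (a count chosen after the values were seen). In 365 of the 931 such stretches the first region was the only one. Stretches that ran past the end of a scaffold were counted too, so the last region of each scaffold is always among these.

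The chain of 4 lay in 34950 bases of Scaffold14 (Scaffold14:2563212-2598161). Its replicate 1 folds were 4.27, 3.01, 3.96 and 4.68 and its highest replicate 2 folds 3.28, 2.83, 3.18 and 4.04, in order along the scaffold. The second was the lowest and the last the highest in both replicates. Here the local backgrounds in replicate 1 were 2.04, 1.24, 1.19 and 1.42 times the genome-wide one, and coverage by replicate 2 peaks was 82.9%, 56.5%, 93.0% and 91.7%. In replicate 2 the highest local backgrounds were 3.11, 1.97, 2.09 and 2.36 times the genome-wide one of that replicate, against 4.68, 4.04, 2.94, 2.60 and 3.54 in the chain on Scaffold04. The backgrounds of the chains did not overlap in replicate 1 and overlapped in replicate 2.

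The nearest replicate 1 peak of any length lay farther from a broad region than from shorter shared peaks. The median distance was 2194 bases (interval 1907 to 2571), against 1230, 1016.5 and 973 bases. Within 10 kb on either side a broad region had a median of 4 other replicate 1 peaks, against 5 in each shorter class, and 8 regions had none. A long peak may already join sites that would otherwise count as its neighbours, so nothing is read from these differences. Finally, 12 regions (1.29%, interval 0.739 to 2.24) lay within 50 kb of a scaffold end, against 0.694%, 0.928% and 0.884% of the shorter classes. Among these 12 were the Scaffold16 pair and Scaffold36:8439-10442.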

How the data were processed

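The authors called ATAC-seq peaks in each of the 2 coeloblastula replicates. The submitters' processing notes list MACS2 2.2.7.1, without its role, settings or any control library. Each deposited narrowPeak line gives a score (10 times the -log10 q, cut to a whole number, in all but 19 and 10 peaks), the fold enrichment (a ratio), the -log10 p, the -log10 q and the summit. Every deposited peak had a -log10 q of at least 2. The study points to a deposited *O. fusiformis* assembly, and its name and version are not given in the sources used here. Coordinates are 1-based on the files' scaffolds, and no gene names are given because the annotation at hand was of another build. The RNA-seq table was not used.

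Lengths, overlaps, gaps and summit distances were computed with Python 3.11.15, pandas 2.3.3, numpy 2.4.6 and scipy 1.17.1, and figures were drawn with matplotlib 3.10.9. Summit pileup k and background b were solved from fold = (k + 1)/(b + 1) and p as the Poisson chance of more than k. A whole k within 0.1 of the step between neighbouring whole numbers was found for 100% of replicate 1 peaks and all but 1 replicate 2 peak. The scripts were tested on simulated data. The sequencing depth in reads is unknown.

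Regions named are the 10 longest, the 5 of highest and 3 of lowest replicate 1 fold, the 5 with most replicate 2 peaks (the longer first among ties), the 3 with the largest replicate 2 -log10 q, 3 on either side of the length threshold, the 3 closest pairs and chains of at least 4. Others are said to be singled out. The members and lists were chosen with earlier results of these data known. The alternatives are given at the end. No samples were compared between groups.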

Additional observations from a re-analysis of the deposited data

How the results depend on the processing

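The number of regions followed the length set for them. A minimum of 1500 bases gave 3036 regions with a median gap of 108 kb and 25.5% within 20 kb of another. A minimum of 3000 bases gave 80, with a median gap of 3112 kb, 11.3% on 1 scaffold, 2.50% within 20 kb, a median fold of 3.01 and 3 replicate 2 peaks. Requiring at least 50% coverage by replicate 2 gave 542 regions, with a gap of 543 kb, 8.49% within 20 kb, a fold of 3.52 and a coverage of 71.2%. With a -log10 q of at least 5 in both replicates, the median gap was 380 kb, the fold 3.35, the replicate 2 peaks held 1, the coverage 53.5% and the share with near summits 51.3%. With at least 10, these were 696 kb, 3.91, 1, 64.1% and 60.7%, and 402 regions were left, 9.45% of them within 20 kb. Joining peaks under 150 bases apart moved the median gap to 270 kb. Leaving out 1 replicate, the count was between 109 and 949, the median gap between 320 and 2646 kb and the share within 20 kb between 6.42% and 12.8%. The share of regions near another was 2.69% at 5 kb and 23.2% at 50 kb, and the share with near summits was 32.2% at 50 bases and 74.8% at 300 bases. A further 43 values, some of them inside the ranges just given and among them all 8 without the 7 regions of over 10 times the genome-wide background (an alternative added after seeing the data), lay within the interval of the value reported, or within 1.5 times it for counts. No paired analysis was possible because the result comes from no test. Counting error over regions is all that the intervals of shares and medians cover. The 2 libraries of 1 stage give no measure of variation between embryos.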

Other observations

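The rule left out 18 replicate 1 peaks of at least 2000 bases that met no replicate 2 peak. They had folds of 2.27 to 3.63 with a median of 2.69, and summit pileups of 59 to 145 with a median of 85.5. The longest was Scaffold07:22789965-22793269, of 3305 bases with a fold of 3.41 and a pileup of 145. None of them had a fold of 4 or more.

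In the other direction, 24 of the 109 replicate 2 peaks of at least 2000 bases lay outside the 931 regions. Replicate 1 had 2 or more shorter peaks in 17 of them, 1 in 6 and none in 1. The longest replicate 1 peak in each had between 754 and 1987 bases. Their folds were 2.57 to 14.4 with a median of 3.8. The highest were Scaffold23:1915721-1917801, of 2081 bases with a fold of 14.4, and Scaffold16:6924530-6926588, of 2059 bases with a fold of 12.0, where the longest replicate 1 peak had 1569 and 1711 bases. The only one without a replicate 1 peak was Scaffold10:15472300-15475201, of 2902 bases with a fold of 4.80, a pileup of 163 and a -log10 q of 54.9 in replicate 2. These regions were named after their values were seen.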
